A study of Homo sapiens with 4 samples.

Results

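Genes of cholesterol synthesis and its control (8 of the 24014 genes in the deposited count table) were followed in the human neuroblastoma line SK-N-SH, with and without overexpression of the long non-coding RNA AP1AR-DT. They were taken by symbol: HMGCS1, SQLE, IDI1, FDFT1, INSIG1, DHCR7, SREBF2 and SC5D. No uptake gene is among them, so genes of uptake and transport are described from a separate list further on. The 2 control libraries (control 1 and control 2) were taken as cells given a lentiviral vector with no insert, though the labels call them wild type. The paper names an empty vector for a chromatin assay in these cells, but not where it describes this RNA sequencing. The other 2 libraries came from cells given a lentivirus carrying AP1AR-DT (AP1AR-DT_OE 1 and AP1AR-DT_OE 2). Both groups were SK-N-SH cells grown in minimal essential medium with non-essential amino acids and an alanyl-glutamine supplement, and the methods name no serum, which is a source of lipoprotein cholesterol. The AP1AR-DT cDNA was amplified from blood RNA and placed in a pCDH vector. The title of AP1AR-DT_OE 2 was followed for its group, since its genotype and treatment labels give the name of the RNA with another final digit. Whether those labels mean another gene is not stated. The labels do not say that the libraries of a group were separate cultures. The p-values therefore rest on the spread between these libraries, which may be technical. The test also borrows spread from other genes, so a p-value does not reflect a gene's own spread alone.

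Cells make cholesterol from acetyl-CoA through mevalonate, isoprenoid diphosphates and squalene, and the first sterol is then trimmed and reduced to cholesterol. SREBP-2, the product of SREBF2, is the transcription factor that switches these enzymes on. It is held in the endoplasmic reticulum by SCAP and INSIG proteins while sterol is plentiful, and is carried to the Golgi and cut free when sterol runs low. Neural cells depend on local synthesis because lipoproteins do not cross the blood-brain barrier, and cholesterol is a main component of synaptic and myelin membranes.

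AP1AR-DT itself, listed in the table as RP11-73K9.2, checked the labels. It had 3 and 18 counts in control 1 and 2 and 680 and 1065 in AP1AR-DT_OE 1 and 2, with a Log2FC (AP1AR-DT_OE over control) of 6.63 (SE 0.64, n = 2 per group, adjusted p = 3.64e-21, DESeq2 Wald test with Benjamini-Hochberg adjustment over the table). Libraries held 21988065 to 26184599 counts, and 19833 to 21280 genes were above 0. None was a copy of another. Libraries with the same replicate number were closer to each other (chi-square per degree of freedom 27.7 and 34.6) than libraries of the same group (155 for the controls and 69.0 for AP1AR-DT_OE), which bears on most of the values below.

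None of the 8 cholesterol genes was called at an adjusted p under 0.05 by DESeq2, where 33 genes of the table (0.137%) were called in either direction. None had an unadjusted p under 0.05 either, against 196 genes of the table (0.816%), and the smallest was 0.428. The edgeR quasi-likelihood test called 0 genes of the whole table, not even AP1AR-DT, so its lack of calls among the 8 adds nothing. It gave 0 unadjusted p-values under 0.05 among the 8 genes, against 112 across the genes it kept after dropping those with low counts. Their Log2FC ran from -0.55 for SC5D to 0.05 for FDFT1, with a median of -0.14 beside -0.03 for all genes tested. The standard errors ran from 0.43 to 0.70, and the 95% intervals allow folds from 0.264 (SC5D) to 2.32 (IDI1).

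SREBF2 (chr22:41833079-41907307, plus strand, GRCh38 as the table gives it), the gene of the pathway's transcription factor, had 3995 counts in control 1, 2973 in control 2, 3611 in AP1AR-DT_OE 1 and 2642 in AP1AR-DT_OE 2. After division by size factors the controls stood at 4550 and 2293 normalized read counts, with AP1AR-DT_OE at 3961 and 2622. Both AP1AR-DT_OE libraries thus lay between the controls. The Log2FC was -0.06 (SE 0.50, 95% Wald interval -1.03 to 0.92). Its opposite-strand neighbour SREBF2-AS1 held 58 to 97 counts in the same libraries.

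INSIG1 (chr7:155297776-155310235, plus strand) encodes the sterol-sensing anchor that keeps SREBP and SCAP in the endoplasmic reticulum, and is itself a classic SREBP-2 target. It had 313 and 726 counts in control 1 and 2 and 304 and 465 in AP1AR-DT_OE 1 and 2. The normalized read counts were 356 and 560.0 against 333 and 462, so the groups overlapped, with the lowest value in AP1AR-DT_OE 1 and the highest in control 2. The Log2FC was -0.21 (SE 0.51, interval -1.21 to 0.79). A gene known to follow SREBP-2 activity therefore gave no call, and its interval corresponds to folds from 0.434 to 1.73.

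The promoters of these genes are shown because SREBP-2 acts on them through the sterol regulatory element, whose core letters are CACNCCAC. RefSeq promoter windows (GRCh38.p14, 250 bases before to 50 after a start site) matched 6 of the 8 genes in 11 windows. The core was searched on both strands and stood in windows of 4 genes, SREBF2, INSIG1, IDI1 (1 of its 3 windows) and SC5D (both windows, at the same site). These were 5 of the 11 windows, while 5.87% of all 35116 windows held it. The 2 windows of HMGCS1 and the 2 of DHCR7 did not hold these letters. Only exact matches inside the windows were sought, so a gene without a match is not shown to lack the element. CCAAT, the letters bound by NF-Y, a usual partner of SREBP, was in at least 1 window of each of the 6 genes. It stood in 8 of the 11 windows, some of which overlap, and in 34.6% of all windows. In the sequences here, given 5′ to 3′ on the strand of the gene, capitals mark matches to the core or to CCAAT on either strand, and where CCAAT meets its reverse complement the matches touch or overlap.
SREBF2, chr22:41832923-41833030, plus strand, core from 132 bases before the start: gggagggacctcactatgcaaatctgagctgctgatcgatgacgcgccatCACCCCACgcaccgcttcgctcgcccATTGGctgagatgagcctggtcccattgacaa
INSIG1, chr7:155297628-155297727, plus strand, core from 208 bases before the start: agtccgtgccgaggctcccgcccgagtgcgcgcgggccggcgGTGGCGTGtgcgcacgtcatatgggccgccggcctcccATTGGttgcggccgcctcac
IDI1, chr10:1048944-1049051, minus strand, core from 115 bases before the start: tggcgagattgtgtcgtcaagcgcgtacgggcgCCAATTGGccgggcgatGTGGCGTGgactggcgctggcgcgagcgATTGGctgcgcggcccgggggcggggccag
SC5D, chr11:121292734-121292841, plus strand, core from 68 bases before the start of the later of its 2 windows: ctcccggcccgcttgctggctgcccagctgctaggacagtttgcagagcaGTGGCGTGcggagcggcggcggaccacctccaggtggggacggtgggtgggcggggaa
A match is a run of letters and not a measured site, and the 4 genes with a match spanned Log2FC values from -0.55 to -0.06, beside -0.22 for HMGCS1 and 0.02 for DHCR7 without a match.

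**Figure D1:**
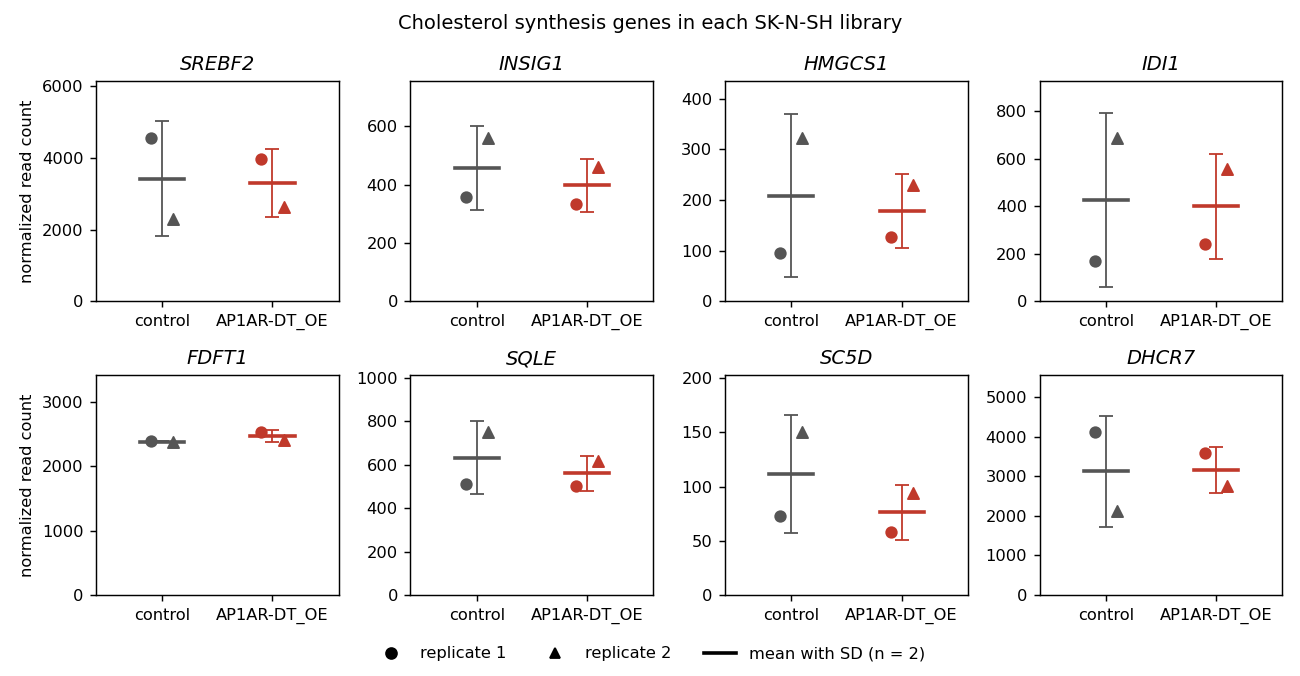
Normalized read count (vertical axis, linear and starting at 0) of each of the 8 genes in each library, with circles for replicate 1, triangles for replicate 2, a bar for the mean and error bars for the SD (n = 2 per group). In HMGCS1, IDI1, INSIG1, SQLE and SC5D the triangle is above the circle in both groups, in SREBF2 and DHCR7 it is below, and the AP1AR-DT_OE points of 4 genes sit between their controls.

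HMGCS1 (chr5:43287470-43313512, minus strand) encodes the cytosolic HMG-CoA synthase, an early enzyme of the mevalonate pathway. Its counts were 83 in control 1, 418 in control 2, 116 in AP1AR-DT_OE 1 and 232 in AP1AR-DT_OE 2. The normalized read counts of 127 and 230 in AP1AR-DT_OE both fell between the controls at 94.5 and 322. The group means were 208 ± 161 for control and 179 ± 72.9 for AP1AR-DT_OE (SD, n = 2), a Log2FC of -0.22 (SE 0.68, interval -1.55 to 1.10). The controls alone differed 3.41-fold. If a pair of reads was worth 4 counts, as the low values of the table point to, the 83 counts of control 1 stand for about 21 pairs, with a counting error near 22.0%.

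IDI1 (chr10:1039152-1049119, minus strand) encodes isopentenyl-diphosphate isomerase, which interconverts the isoprenoid building blocks. It had 148 and 889 counts in control 1 and 2, and 220 and 560 in AP1AR-DT_OE 1 and 2. On the normalized scale the controls were 169 and 686 and the AP1AR-DT_OE libraries 241 and 556, again inside the range of the controls. IDI1 had the widest gap between controls of the 8 genes, 4.07-fold, and 2.30-fold between the AP1AR-DT_OE libraries. The Log2FC was -0.10 (SE 0.67, interval -1.42 to 1.21). Its opposite-strand neighbour IDI2-AS1 held at most 8 counts.

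FDFT1 (chr8:11795573-11839304, plus strand) encodes squalene synthase, which commits isoprenoids to sterols. It had 2100 and 3079 counts in control 1 and 2 and 2309 and 2422 in AP1AR-DT_OE 1 and 2. Normalized, the controls were 2392 and 2375 and the AP1AR-DT_OE libraries 2533 and 2404, so that FDFT1 was the only member with AP1AR-DT_OE above both controls. Of the 13298 genes whose normalized read counts averaged 50 or more, 679 (5.11%) had that order, so 1 in 8 is not a result by itself. The Log2FC was 0.05 (SE 0.43, interval -0.79 to 0.89), the narrowest interval of the 8. Within the limits of that error, squalene synthase transcript was the steadiest of these genes, with an SD of 11.8 around 2383 in control and of 91.1 around 2468 in AP1AR-DT_OE.

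SQLE (chr8:124998497-125022283, plus strand) encodes squalene epoxidase, the first oxygen-using and a rate-limiting step of the sterol branch. Its counts were 451 and 974 in control 1 and 2, and 459 and 622 in AP1AR-DT_OE 1 and 2. The normalized read counts overlapped between groups, at 514 and 751 in control and 503 and 617 in AP1AR-DT_OE. The Log2FC was -0.18 (SE 0.48, interval -1.12 to 0.77).

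SC5D (chr11:121292681-121313410, plus strand) encodes lathosterol oxidase, which makes 7-dehydrocholesterol, the substrate of DHCR7. It was the least abundant of the 8, with 64 and 195 counts in control 1 and 2 and 53 and 95 in AP1AR-DT_OE 1 and 2. Normalized, these were 72.9 and 150.4 against 58.1 and 94.3, which overlap, with both groups higher in replicate 2. Its Log2FC of -0.55 (SE 0.70, interval -1.92 to 0.82, unadjusted p = 0.428 by the DESeq2 Wald test) was the farthest from 0 among the 8. The 53 counts of AP1AR-DT_OE 1 would on the same reckoning stand for about 13 pairs of reads, with a counting error of 27.5%.

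DHCR7 (chr11:71428193-71452868, minus strand) encodes 7-dehydrocholesterol reductase, the last reduction on the way to cholesterol and the enzyme lost in Smith-Lemli-Opitz syndrome. It had 3613 and 2763 counts in control 1 and 2 and 3258 and 2767 in AP1AR-DT_OE 1 and 2. The normalized read counts of 3574 and 2746 in AP1AR-DT_OE lay between the controls at 4115 and 2131. The Log2FC was 0.02 (SE 0.48, interval -0.93 to 0.97). An unnamed lncRNA gene on the opposite strand held 124 to 171 counts, and it is not stated whether counting used strand.

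**Figure D2:**
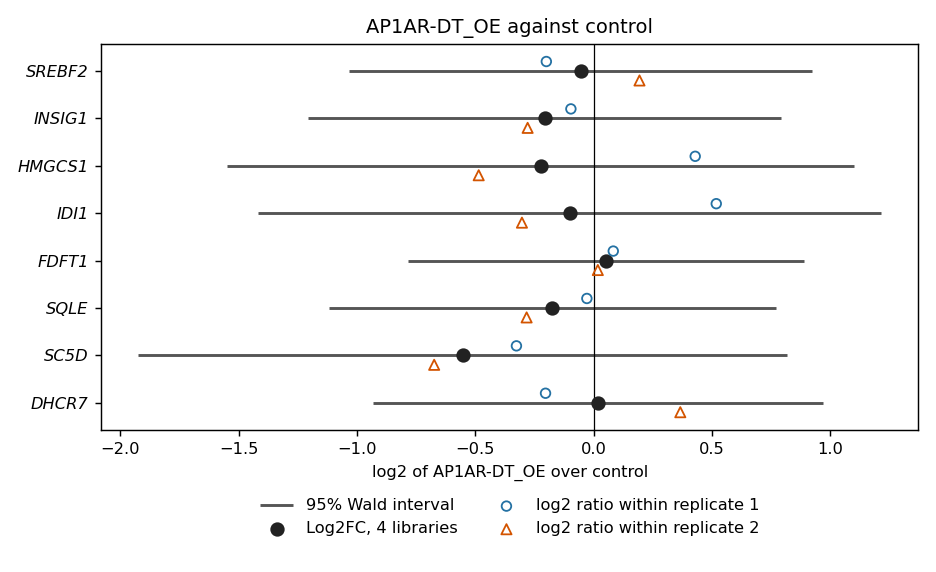
Log2 of AP1AR-DT_OE over control for each of the 8 genes: filled circles with lines are the Log2FC from all 4 libraries with its 95% Wald interval, and open symbols are the ratios within replicate 1 (circles) and replicate 2 (triangles). Every interval spans 0, from -1.92 at the low end of SC5D to 1.21 at the high end of IDI1, and the open symbols lie on opposite sides of 0 for HMGCS1, IDI1, DHCR7 and SREBF2.

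Of the 8 genes, 4 had both AP1AR-DT_OE libraries between the controls (HMGCS1, IDI1, DHCR7 and SREBF2), as had 50.2% of the 13298 genes averaging 50 or more. In 3 the groups overlapped otherwise, in 1 AP1AR-DT_OE was above both controls, and in none was it below both, an order that 4.35% of those genes had. Taken within replicate numbers, the log2 ratio of AP1AR-DT_OE to control ran from -0.33 to 0.52 in number 1 and from -0.67 to 0.37 in number 2. It had opposite signs in the 2 numbers for 4 genes. SC5D had the lowest ratio in both, at -0.33 and -0.67, and IDI1 was at 0.52 in number 1 and -0.30 in number 2. Leaving out a single library turned the sign of the Log2FC in 7 of the 8 genes, all but FDFT1, and gave no call. Without control 2, for example, IDI1 stood at 1.25, and without AP1AR-DT_OE 2 at -0.84.

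Levels of different genes were compared per kilobase of the longest annotated transcript. By mean normalized read count per kilobase, DHCR7 was highest at 1102, followed by FDFT1 at 985, SREBF2 at 589, SQLE at 201, INSIG1 at 147, IDI1 at 123, HMGCS1 at 36.2 and SC5D at 13.7. The first was 80.4-fold above the last by these means, and 136-fold in control 1, 34.1-fold in control 2, 148-fold in AP1AR-DT_OE 1 and 70.0-fold in AP1AR-DT_OE 2. Neighbours in this order were not all apart. DHCR7 spanned 748 to 1444 per kilobase over the 4 libraries and FDFT1 965 to 1029. The ranges of SQLE (170.0 to 254), INSIG1 (115 to 193) and IDI1 (up to 203) overlapped one another. Within each library SQLE was above both INSIG1 and IDI1, which changed order between libraries. SREBF2 at 402 to 798 stayed below FDFT1 and above SQLE in all 4 libraries, HMGCS1 at 17.7 to 60.3 was below IDI1 in each library, and SC5D at 8.48 to 21.9 was lowest in each library. These are levels of the transcript and not of enzyme activity. They were not corrected for GC content, which was highest in DHCR7 (58.1%) and SREBF2 (57.1%) and lowest in SC5D (36.9%). The part of GC content in this order was not tested.

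The larger differences in these genes lay between replicate numbers rather than between groups. In both groups HMGCS1, IDI1, SC5D, INSIG1 and SQLE were higher in replicate 2, and DHCR7, SREBF2 and FDFT1 were lower. The log2 ratio of control 2 to control 1 was 2.02 for IDI1, 1.77 for HMGCS1, 1.05 for SC5D, 0.65 for INSIG1, 0.55 for SQLE, -0.01 for FDFT1, -0.95 for DHCR7 and -0.99 for SREBF2. Between the AP1AR-DT_OE libraries the same ratio was 1.20 for IDI1, 0.86 for HMGCS1, 0.70 for SC5D, 0.47 for INSIG1, 0.29 for SQLE, -0.08 for FDFT1, -0.38 for DHCR7 and -0.59 for SREBF2. The gap between the controls was larger than the size of the Log2FC in 7 of 8 genes, FDFT1 being the exception. That sets single libraries against group means. Between single libraries, the median absolute log2 ratio of the 8 genes was 0.97 for the controls and 0.53 for AP1AR-DT_OE. Across groups it was 0.20 within number 1 and 0.29 within number 2. Genes averaging 50 or more gave 0.72 and 0.42, against 0.19 and 0.24. By direction, the 8 genes split into a set led by IDI1 and HMGCS1 and a pair, DHCR7 and SREBF2, that moved the other way with the replicate number.

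This split followed the GC content of the transcripts. The longest transcript was 36.9% G and C for SC5D, 39.0% for HMGCS1, 41.1% for IDI1, 44.8% for INSIG1, 46.5% for SQLE, 47.0% for FDFT1, 57.1% for SREBF2 and 58.1% for DHCR7. Spearman's rho between GC content and the log2 ratio of control 2 to control 1 was -0.88 over the 8 genes, -0.88 over 28 other genes of synthesis and SREBP control, and -0.77 over 13231 genes of the table. For AP1AR-DT_OE 2 over AP1AR-DT_OE 1 the values were -0.88, -0.82 and -0.65. These are descriptions over genes that share the same libraries. With a smoothed GC trend taken out, the median absolute gap of the 8 genes went from 0.97 to 0.27 between the controls and from 0.53 to 0.17 between the AP1AR-DT_OE libraries, where genes averaging 50 or more went from 0.72 to 0.33 and from 0.42 to 0.25. The gap shrank for 7 of the 8 genes in each group. With the trend out, rho over the 8 genes was still -0.57 for the controls and -0.38 for AP1AR-DT_OE. Over the 28 others it was 0.07 and 0.05. GC content also went with the ratio of AP1AR-DT_OE 2 to control 2, with a rho of 0.98 over the 8 genes and 0.81 over the 28 others, and less with that of AP1AR-DT_OE 1 to control 1 (-0.21 and -0.33). With the trend out, the ratios within number 2 went from -0.49 to -0.20 for HMGCS1, from 0.37 to 0.14 for DHCR7 and from -0.67 to -0.34 for SC5D, and SREBF2 was at -0.08 in number 1 and -0.02 in number 2. IDI1 still differed by 1.05 and HMGCS1 by 0.61 between the controls after that step.

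**Figure D3:**
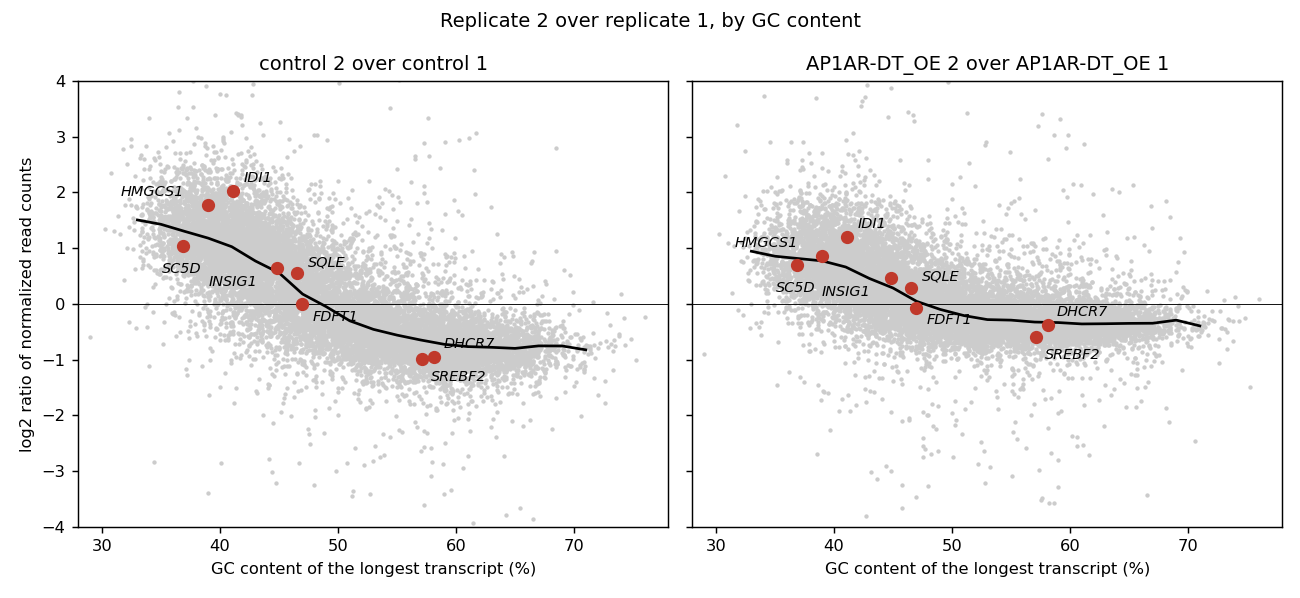
Log2 ratio of normalized read counts in replicate 2 over replicate 1 (vertical axis) against the GC content of the longest transcript (horizontal axis, %), for the controls on the left and AP1AR-DT_OE on the right. Grey points are genes averaging 50 or more normalized reads (13231 and 13234, of which 37 and 34 lie outside the axes), the black line is the median in bins of GC content, and the 8 genes in red run from upper left (IDI1, HMGCS1, SC5D) to lower right (SREBF2, DHCR7), with IDI1 and HMGCS1 above the line among the controls.

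The wider cholesterol system was read from 6 lists, which hold 76 genes of the table, the 8 included. DESeq2 called none of the 76, and none had an unadjusted p under 0.05, with the smallest at 0.0523. The edgeR quasi-likelihood test called 0 genes of the whole table, so its lack of calls here adds nothing. Among the 76 genes it gave 1 unadjusted p under 0.05, in the list of SREBP processing and sterol sensing. Their median Log2FC was -0.0064, beside -0.03 for all genes tested. In the mevalonate and isoprenoid list 9 of 9 genes averaged 50 or more normalized read counts, with a median Log2FC of 0.09, and 4 lay between the controls. In the squalene and sterol list it was 14 of 14, -0.01 and 7, and in SREBP processing and sterol sensing 13 of 13, -0.0024 and 8. In uptake and intracellular transport 16 of 18 genes reached that level, with a median of -0.0088, and 11 lay between the controls. In efflux, oxysterols and ester storage it was 6 of 12, 0.06 and 3, and 3 of its genes had at most 12 counts in any library. In fatty acid synthesis under SREBP, it was 10 of 10, -0.05 and 9.

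GGPS1, which makes the geranylgeranyl group for protein prenylation, stood at -0.40 (SE 0.62), with 288 and 1217 against 257 and 681 counts. CYP51A1, the lanosterol demethylase, was at -0.46 (SE 0.69), LBR, a sterol reductase that also anchors the nuclear lamina, at -0.19 (SE 0.54), and HSD17B7, a sterol ketone reductase, at 0.38 (SE 0.59). HSD17B7 has a processed copy in the table, HSD17B7P1, with 29 to 56 counts, so its reads are uncertain. Opposite-strand genes also held counts, ARID4B over GGPS1 (90 to 291) and AKAP9 over CYP51A1 (20 to 138).

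FDPS, farnesyl diphosphate synthase, had the largest Log2FC of the mevalonate list at 1.13 (SE 0.61, adjusted p = 1.00 by DESeq2), and AP1AR-DT_OE 1 decided it. Its counts were 118 and 213 in control 1 and 2, 439 in AP1AR-DT_OE 1 and 172 in AP1AR-DT_OE 2, and without AP1AR-DT_OE 1 the value was 0.19. The opposite-strand gene RUSC1-AS1 was low in that same library, at 151 counts against 403, 506 and 452 in control 1, control 2 and AP1AR-DT_OE 2. Summed, FDPS and RUSC1-AS1 gave 593 and 555 normalized read counts in control and 647 and 619 in AP1AR-DT_OE. The copy FDPSP1 held 895 to 1168 counts, more than FDPS itself in every library. Summed with its copies instead, FDPS gave 1171 and 1081 normalized read counts in control 1 and 2. In AP1AR-DT_OE 1 and 2 that sum was 1564 and 1122. The source of the higher FDPS count in AP1AR-DT_OE 1 was not tested.

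Among the genes of SREBP processing, ERLIN2, an endoplasmic reticulum protein that takes part in sterol-driven protein degradation, stood apart in a single library. It had 67 and 164 counts in control 1 and 2, 97 in AP1AR-DT_OE 1 and 1400 in AP1AR-DT_OE 2. The Log2FC was 2.88 (SE 1.49, unadjusted p = 0.0523 and adjusted p = 1.00 by DESeq2). With TMM factors in DESeq2 the unadjusted p was 0.000436 and the adjusted p 0.159. The Log2FC of ERLIN2 was 0.05 without AP1AR-DT_OE 2 and 3.77 without AP1AR-DT_OE 1, with the lone AP1AR-DT_OE library assumed to vary like the controls. INSIG2, the second INSIG protein, was at -0.39 (SE 0.72), with 53 and 198 against 56 and 102 counts. MBTPS2, the site-2 protease that releases SREBP, was at -0.22 (SE 0.53). YY2, whose exons overlap those of MBTPS2 on the same strand, held 18 to 74 counts.

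Among genes of uptake and intracellular transport, NPC2, which hands cholesterol out of the lysosome, was at 0.20 (SE 0.45). ISCA2, on the strand opposite NPC2, held 515 to 887 counts. STARD4, a carrier of cholesterol between membranes, was at 1.32 (SE 0.86), with 77 and 16 counts in control 1 and 2 and 85 and 155 in AP1AR-DT_OE. Control 2 decided this value, which was 0.51 without it and 3.32 without control 1. The opposite-strand gene STARD4-AS1 held 265 counts in control 2 and 6 to 14 in the other libraries, so that the sum of the pair was 217 normalized read counts in control 2, above the 94.5, 109 and 166 of the rest.

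In the storage and efflux list SOAT1, which esterifies cholesterol for lipid droplets, had 433 and 228 counts in control 1 and 2 and 500 and 858 in AP1AR-DT_OE 1 and 2. Its AP1AR-DT_OE libraries were above both controls, with a Log2FC of 1.07 (SE 0.58, unadjusted p = 0.0658 and adjusted p = 1.00 by DESeq2). It was 0.52 without control 2, and 1.99 without control 1, where it passed the test (adjusted p = 0.0380 by DESeq2). NCEH1, a cholesteryl ester hydrolase, was at -0.28 (SE 0.50), and NR1H3, which encodes the sterol-sensing receptor LXR alpha, at 0.19 (SE 0.66). ACP2, on the strand opposite NR1H3, held 996 to 1088 counts, beside 80 to 139 for NR1H3. ELOVL6, ACSL3 and ELOVL5, which elongate or activate fatty acids, were at -0.29 (SE 0.57), -0.18 (SE 0.60) and -0.12 (SE 0.47).

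**Figure D4:**
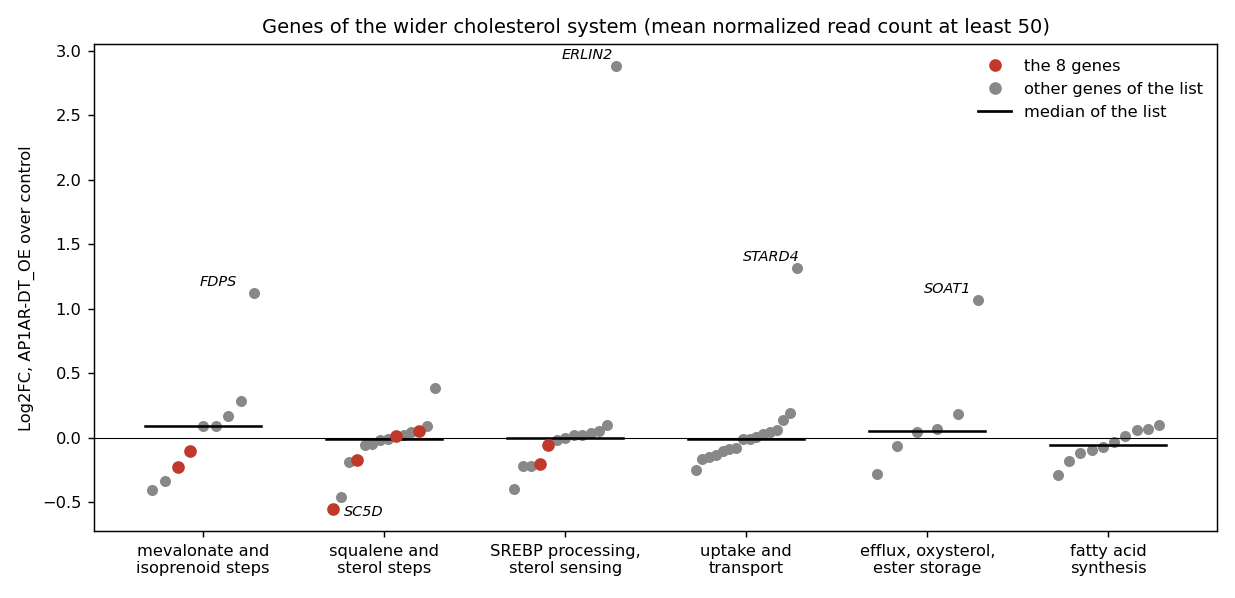
Log2FC of AP1AR-DT_OE over control (vertical axis) for genes of the 6 lists that average 50 or more normalized read counts, sorted within each list, with the 8 genes in red, other genes in grey and the median of each list as a bar. List medians lie between -0.05 and 0.09, and the 4 genes above 1 are FDPS, ERLIN2, STARD4 and SOAT1, none of them called with all libraries.

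SK-N-SH is a mixed line, with adrenergic cells that resemble neuroblasts and mesenchymal cells that adhere to the dish, and in bulk RNA fewer cells of a type and less RNA per cell cannot be told apart. Of 13 adrenergic markers in the table none had an unadjusted p under 0.05, and their summed normalized read counts were 47695 and 35839 in control and 44868 and 41407 in AP1AR-DT_OE. Of 13 mesenchymal markers, 1 did, PRRX1, at 2432 and 14724 counts in control 1 and 2 and 1131 and 2263 in AP1AR-DT_OE 1 and 2 (Log2FC -2.02, SE 0.61, unadjusted p = 0.000987 and adjusted p = 0.431 by DESeq2). Mesenchymal sums were 237581 and 169956 against 232541 and 189557. Both sums were highest in control 1 and lowest in control 2, as were SREBF2 and DHCR7, the members with the highest GC content (57.1% and 58.1%). The part of GC content in these sums was not tested, nor was the part of the sums in the gene values above. Of the epithelial, immune and endothelial markers 3 had a row, EPCAM and VWF with at most 14 counts and CD68 with 64 to 137.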

How the data were processed

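RNA-seq of 4 SK-N-SH libraries was used. The submitters' processing notes name TopHat2 2.0.4, SAMtools, HTSeq, Cuffdiff, edgeR 2.6.12 and hg19, whereas the paper's methods give HISAT2 on hg19, StringTie and its count script, and DESeq2; the annotation was not given in the sources used here. The authors deposited whole-number counts per gene with no normalization, beside GRCh38 coordinates. The table also holds fold changes and p-values of the authors' own tests, which were not used. Low values piled up at 4 and 8 (3287 entries at 4, 2136 at 3 and 1509 at 5), as when a pair of reads is worth about 4 counts, though other low values also occur (1856 entries at 2) and the sources do not settle how the counts were made. If so, precision is lower than the counts imply. Counting errors given rest on this reading, and PCR copies are not independent.

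Counts were analysed with DESeq2 1.42.0 (R 4.3.3): median-of-ratios size factors, a two-sided Wald test with no covariate over all 24014 genes, Benjamini-Hochberg adjustment with default independent filtering, and calls at an adjusted p under 0.05. Alternatives, called at the same threshold, were the edgeR 4.0.16 quasi-likelihood test, TMM factors, the likelihood-ratio test, a filter of 10 counts in 2 libraries, independent filtering off, a block for replicate number, counts divided by 4, a GC correction (lowess, span 0.3) and leaving out each library. The edgeR tests first dropped genes with low counts, used TMM factors and adjusted over the genes kept. Their numbers of genes are therefore not out of all 24014. GC content and length came from the longest transcript in GENCODE v44, as lifted to GRCh37, for 23954 genes matched on gene ID. The fit was checked on simulated data. Genes outside the 8 were named where called, or else up to 3 per list with the largest absolute Log2FC at an average of 50 or more normalized read counts; PRRX1 and the markers of other cell types were named after their values were seen. Some genes that this rule picks are not reported here. The 8 genes and the lists (6 of cholesterol and fatty acid genes, with adrenergic, mesenchymal and other cell markers) were chosen with earlier results of these data known. Of 113 list genes, 105 had a row.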

Additional observations from a re-analysis of the deposited data

How the results depend on the processing

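No alternative called any of the 8 genes. Of 112 values under 14 settings, 94 kept their sign and 18 reversed it, with a smallest unadjusted p of 0.0484 (IDI1 without control 2) and a smallest adjusted p of 0.999. Values with independent filtering off and from the likelihood-ratio test kept their sign by construction, since both settings reuse the main Log2FC. With the GC correction HMGCS1 stood at 0.0065 and IDI1 at 0.10. With the GC correction and the replicate block they stood at 0.039 and 0.16. With the replicate block alone IDI1 was 0.094 in DESeq2 and 0.086 in edgeR. The replicate numbers of 2 libraries per group do not establish pairs. Deviations from the group means correlated between same-numbered libraries at r = 0.49 over 13298 genes, and at 0.26 with the GC trend out. The block moved the calls across the table from 33 to 37 in DESeq2 and from 0 to 44 in edgeR, and called none of the 8 in either. Leaving out each library in turn gave Log2FC ranges of -0.85 to 0.93 for HMGCS1, -0.43 to 0.14 for SQLE, -0.84 to 1.25 for IDI1, -0.50 to 0.17 for INSIG1, -0.37 to 0.57 for DHCR7, -0.46 to 0.52 for SREBF2 and -0.98 to 0.08 for SC5D, while FDFT1 stayed between 0.0069 and 0.076. Among other named genes the ranges were -1.19 to 0.56 for GGPS1, -0.91 to 0.22 for CYP51A1, -0.59 to 0.38 for LBR, -0.91 to 0.44 for INSIG2, -0.52 to 0.18 for MBTPS2, -0.58 to 0.12 for NCEH1, -0.37 to 0.57 for NR1H3, -0.78 to 0.48 for ELOVL6, -0.66 to 0.57 for ACSL3 and -0.44 to 0.30 for ELOVL5. Calls in the lists of SREBP processing and of efflux and storage ranged from 0 to 1 (ERLIN2 without AP1AR-DT_OE 1, SOAT1 without control 1). Across the table the calls were 0 by edgeR without the block (112 genes had an unadjusted p under 0.05, against 437 with it), 15 after dividing counts by 4, 55 with the GC correction, 60 with GC correction and block, and 45 to 90 without a library (90 without control 1, 75 without control 2, 50 without AP1AR-DT_OE 2); the cause was not tested. AP1AR-DT kept its Log2FC under edgeR (6.60) but not the call (adjusted p = 0.39), and with the block edgeR called it (6.70, adjusted p = 1.85e-06). A group left with 1 library was assumed to vary like the other. At 53 to 116 counts in the lowest libraries, SC5D and HMGCS1 limit what can be read from their folds.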
